A study of Mus musculus with 3 samples.

Results

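The Toll-like receptor genes Tlr2, Tlr3, Tlr4, Tlr7, Tlr8, Tlr9, Tlr11, Tlr12 and Tlr13 and the chaperone gene Unc93b1 were followed through 3 single-cell libraries of mouse Peyer's patch phagocytes. These 10 genes were taken by symbol from the 27998 genes listed in each count matrix, and all 10 had at least 1 transcript molecule in every library. The first library came from mice given 125 µg CpG, an oligonucleotide agonist of Tlr9, and the second from mice given 10 µg R848, a small-molecule agonist of Tlr7 in the mouse. Both agonists were injected into the peritoneum in PBS and acted for 9 h, while the Control mice were untreated, so that injection and agonist cannot be told apart. Each library pooled 12 female C57BL/6Rj mice, from which 85 patches were taken after CpG, 90 after R848 and 88 in Control. Cells were enriched for CD11c and sorted live as conventional dendritic cells of both kinds (cDC1 and cDC2), lysozyme-expressing dendritic cells (LysoDC) and macrophages, and plasmacytoid dendritic cells were not among the sorted populations.

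Toll-like receptors are membrane proteins that recognise microbial molecules and signal through adaptor proteins to NF-kB and interferon regulatory factors. Tlr3, Tlr7, Tlr8, Tlr9, Tlr11, Tlr12 and Tlr13 act in endosomes, where nucleic acids and protozoan profilin are met, and Unc93b1 carries them there from the endoplasmic reticulum, whereas Tlr2 and Tlr4 sense lipoproteins and lipopolysaccharide at the cell surface. LysoDC and lysozyme-expressing macrophages are monocyte-derived phagocytes of the patch that take up particles below the follicle epithelium.

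With 1 library a group, no test between groups was possible, and every interval here is a 95% interval of counting error only. Levels are UMIs (unique molecular identifiers, each counting 1 captured transcript molecule) of a gene per 1000000 UMIs summed over the cells of a class, written CPM, with exact Poisson intervals. A count of 0 is given with the detection floor of 3 UMIs as the level it allows, which lies below the upper end of the exact interval. A ratio of 2 libraries carries an exact conditional binomial interval. A gene was called higher or lower when its level differed at least 2-fold, the interval left out 1 and both libraries together held at least 20 of its UMIs. The CpG and R848 comparisons share the Control library. Levels of different genes were not compared, since 3' counts are not divided by length.

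After filters, 4821 CpG, 4898 R848 and 5079 Control cells were used. Over all barcodes before filters, the medians were 7501, 8223 and 7494 UMIs per barcode. Between 33 and 42 barcodes were shared by each pair of libraries. Classes were ranges of summed marker UMIs that held none of the 10 genes, and they hold cells near each limit. LysoDC-like cells numbered 873 after CpG, 1236 after R848 and 1489 in Control, and macrophage-like cells, told from them by at least 1 Cd4 UMI, numbered 385, 602 and 532. A LysoDC-like cell is therefore a lysozyme-high cell with 0 Cd4 UMIs and may be a macrophage in which Cd4 was not captured. The cDC2-like class held 350 CpG, 304 R848 and 1389 Control cells, and the mature dendritic cell-like class, high in Ccr7 and Fscn1, held 2741, 2190 and 284. Resting cDC1-like cells numbered 14 after CpG and 4 after R848, against 396 in Control, so levels in this class rest on Control. Free RNA, measured from complement C1q transcripts in dendritic cells, was put at 2.40% of UMIs in CpG, 2.65% in R848 and 3.52% in Control. It would give at most 0.747 CPM of any of these receptors and between 9.17 and 16.25 CPM of Unc93b1 in a class that does not make them. The detection floor of 3 UMIs lay between 0.178 and 1.90 CPM in the 4 other main classes of each library, and in Control cDC1-like cells at 0.996 CPM.

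The promoters of Tlr3, Tlr11 and Tlr12 are shown, 3 of the genes with differences between cell types or treatments described here. Promoter windows, 250 bases before to 50 bases after the transcription start in RefSeq on GRCm38.p6, were found for 7 of the 10 genes, and those of Tlr4, Tlr7 and Unc93b1 are not shown. A pair of motifs was searched on both strands, the interferon-stimulated response element and a PU box, GAGGAA, and matches are in capitals.
Tlr3, chr8:45410331-45410630, minus strand: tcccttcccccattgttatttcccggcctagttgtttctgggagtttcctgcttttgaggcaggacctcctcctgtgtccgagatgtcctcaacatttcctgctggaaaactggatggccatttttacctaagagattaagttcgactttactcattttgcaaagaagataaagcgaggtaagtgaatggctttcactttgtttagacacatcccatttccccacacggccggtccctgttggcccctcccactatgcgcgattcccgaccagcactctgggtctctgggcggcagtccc
Tlr11, chr14:50357664-50357963, plus strand: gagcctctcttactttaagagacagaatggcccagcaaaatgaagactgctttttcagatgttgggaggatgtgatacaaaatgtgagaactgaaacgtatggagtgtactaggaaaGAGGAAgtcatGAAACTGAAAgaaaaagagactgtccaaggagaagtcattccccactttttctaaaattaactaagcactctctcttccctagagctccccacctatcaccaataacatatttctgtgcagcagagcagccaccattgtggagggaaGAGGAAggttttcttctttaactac
Tlr12, chr4:128618570-128618869, minus strand: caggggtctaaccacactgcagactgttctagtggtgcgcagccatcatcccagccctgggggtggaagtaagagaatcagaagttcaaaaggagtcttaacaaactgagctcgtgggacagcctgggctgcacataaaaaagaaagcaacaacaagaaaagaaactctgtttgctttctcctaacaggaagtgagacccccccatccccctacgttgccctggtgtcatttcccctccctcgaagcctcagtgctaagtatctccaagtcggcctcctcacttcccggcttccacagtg
The response element matched at 1 place among the 7 windows, at position -122 of Tlr11, and it occurs in 3.44% of all 32851 promoter windows. The PU box letters were present in the windows of Tlr8, Tlr9, Tlr11 and Tlr13, in Tlr11 first at position -133, and they occur in 28.3% of all windows. The motifs do not overlap in the Tlr11 window. A window without a match says only that these letters are not in it. The Tlr3 window lies wholly inside the GENCODE span of the gene (chr8:45395665-45411080), so its RefSeq start is downstream of the GENCODE one.

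By the calling rule above, Tlr7 and Tlr3 were higher after both agonists in both lysozyme-high classes, and Tlr12 after R848 in LysoDC-like cells. In LysoDC-like cells after CpG, 2 of 8 measured members were higher (Tlr3 and Tlr7), where 3.33% of 10851 genes were, and 1 was lower (Tlr2), where 3.14% were. After R848, 4 of 9 were higher (Tlr3, Tlr7, Tlr9 and Tlr12), where 5.96% of 11091 genes were, and 0 were lower, where 3.59% were. Tlr11 was below the count minimum in both comparisons and Tlr9 in that of CpG. Among macrophage-like cells, 2 of 8 rose after CpG, where 4.19% of 9761 genes did and 3.13% fell, and 2 of 9 after R848, where 7.41% of 10142 genes did and 4.26% fell. These were Tlr3 and Tlr7 in both cases, and 0 members were lower. In cDC2-like cells 0 of 7 were higher and 1 was lower after CpG (3.67% and 3.01% of all genes), and 0 of 7 were higher and 2 lower after R848 (3.38% and 2.33%). In mature cells 0 of 5 were higher and 1 was lower after CpG (8.37% and 6.75% of all genes), and likewise after R848 (5.52% and 7.89%). Of R848 set against CpG, 1 of 9 members was higher in LysoDC-like cells (3.91% of all genes), 1 of 9 in macrophage-like cells (3.70%) and 2 of 7 in mature cells (3.14%). The median log2 ratio of the measured members in LysoDC-like cells was 0.48 after CpG and 0.64 after R848, beside 0.00 and 0.10 over all genes. In macrophage-like cells it was 0.15 and 0.27, beside 0.04 and 0.12, and in mature cells -0.93 and 0.42, beside 0.12 and -0.01.

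Tlr7, the endosomal sensor of single-stranded RNA and the receptor of R848 in mice, was higher after both agonists in both lysozyme-high classes. In LysoDC-like cells its level was 49.1 CPM (573 UMIs) after CpG and 42.8 CPM (662 UMIs) after R848, against 18.05 CPM (268 UMIs) in Control. These gave ratios to Control of 2.72 (2.35 to 3.16) for CpG and 2.37 (2.05 to 2.74) for R848. In macrophage-like cells Tlr7 stood at 70.5 CPM after CpG and 61.1 CPM after R848, against 27.5 CPM in Control, ratios of 2.56 (2.10 to 3.13) and 2.22 (1.83 to 2.70). The share of LysoDC-like cells with a Tlr7 UMI was 45.5% after CpG and 38.1% after R848, against 15.6% in Control. These cells were also deeper after the agonists, with medians of 13445 and 12448 UMIs per cell, against 10086 in Control. Thinned to 3000 UMIs a cell, with 843 CpG, 1209 R848 and 1400 Control cells deep enough, the shares were 14.1%, 12.2% and 5.21%. The summed lysozyme-class markers, which define these cells, had medians of 990 UMIs per 10000 after CpG and 784 after R848, against 993 in Control, and their part in the result was not tested.

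Most Tlr7 UMIs of each library lay in lysozyme-high cells. LysoDC-like and macrophage-like cells together held 95.6% of its UMIs in CpG, 91.2% in R848 and 91.5% in Control, while they held 40.8%, 52.7% and 49.7% of all UMIs. The cDC2-like class gave 2 UMIs after CpG, 3 after R848 and 5 in Control, levels within the reach of free RNA, and Control cDC1-like and mature cells gave 0, which allows up to 0.996 and 1.90 CPM. Lymphocyte-like cells did have Tlr7, at 26.3 CPM (13 UMIs) after CpG and 24.3 CPM (18 UMIs) after R848, against 15.8 CPM (7 UMIs) in Control. This class takes cells with lymphocyte markers ahead of the lysozyme-high classes, so it may hold lysozyme-high cells, which was not tested. In Control the interval of lymphocyte-like cells overlapped that of LysoDC-like cells. Proliferating cells had 7.59 CPM after CpG and 24.0 CPM after R848, against 11.9 CPM in Control. Macrophage-like cells were above LysoDC-like cells in each library, by 1.44-fold (1.25 to 1.64) in CpG, 1.43-fold (1.26 to 1.61) in R848 and 1.53-fold (1.24 to 1.88) in Control. Lysozyme-high cells with 2 or more Cd4 UMIs had 80.0 CPM after CpG and 63.1 CPM after R848, against 26.0 CPM in Control. Those with a UMI of Timd4, a phosphatidylserine receptor of resident macrophages, had 74.2 CPM after CpG and 66.4 CPM after R848, against 25.8 CPM in Control. The difference was also present between clusters of single libraries, which were built without the 10 genes. The lysozyme-high clusters ranged from 38.4 to 69.7 CPM in CpG (3 clusters) and from 34.5 to 63.2 CPM in R848 (3 clusters), against 4.35 to 27.6 CPM in Control (4 clusters), and the treated and Control ranges do not overlap. The smallest of these clusters held 379 cells in CpG and 406 in R848, against 76 in Control. R848 was slightly below CpG in LysoDC-like cells, at a ratio of 0.87 (0.78 to 0.98).

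**Figure D1:**
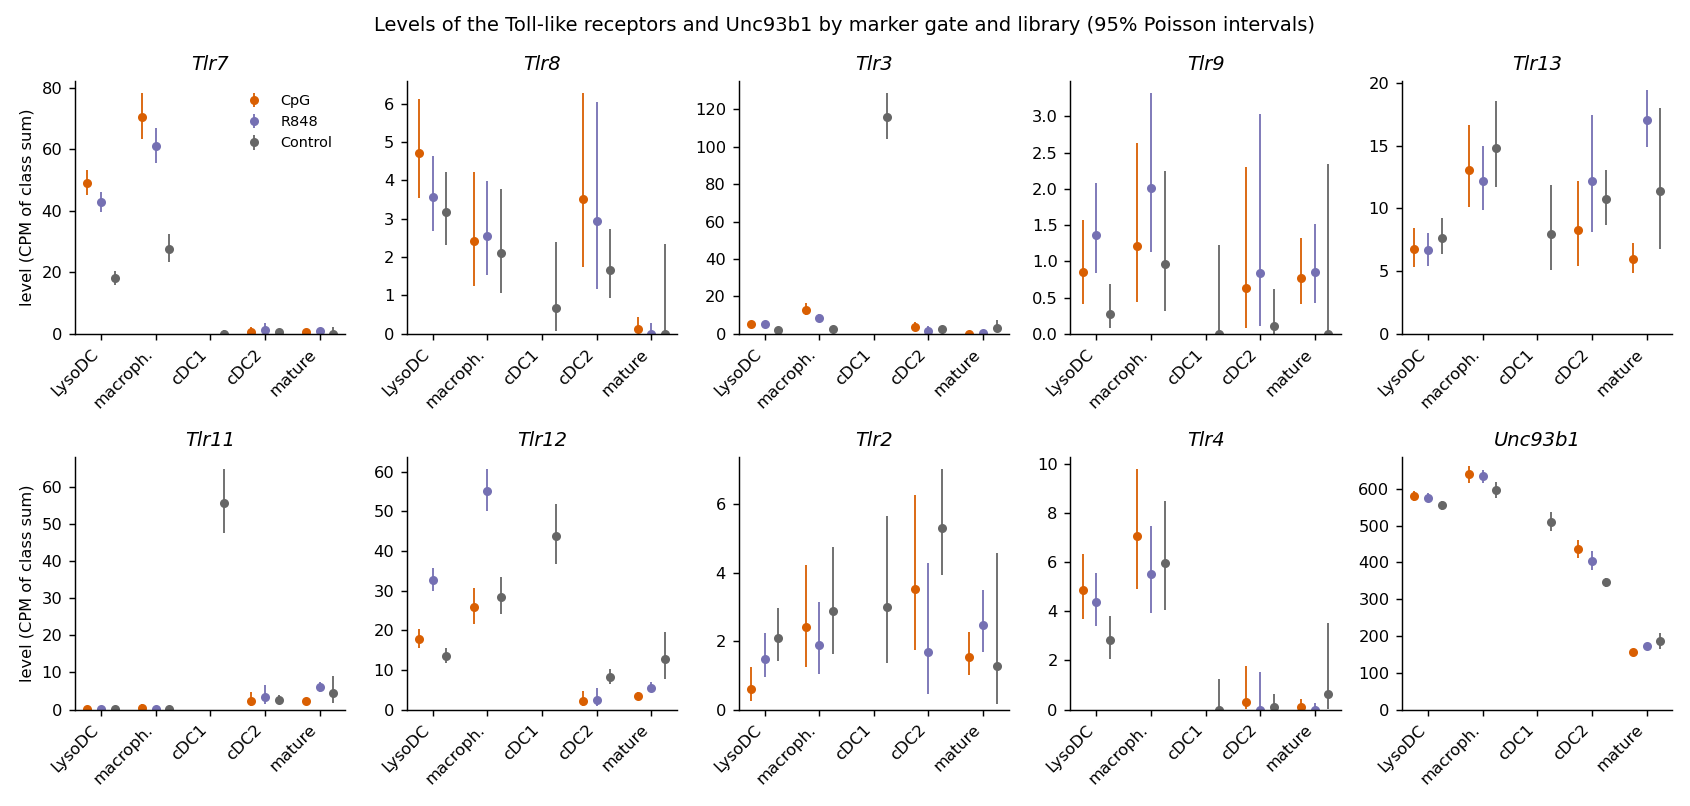
Levels in CPM of summed UMIs (vertical axes, 1 panel a gene) in 5 marker classes, with CpG, R848 and Control side by side and bars for exact Poisson intervals. Resting cDC1-like cells are drawn for Control, since CpG and R848 held 14 and 4 of them. Tlr7 reached 49.1 and 42.8 CPM in treated LysoDC-like cells, against 18.05 CPM in Control, while Tlr3 and Tlr11 stood highest in Control cDC1-like cells at 115.8 and 55.8 CPM.

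Tlr3, the endosomal sensor of double-stranded RNA, was in Control a gene of cDC1-like cells. Its level there was 115.8 CPM (104 to 129, 349 UMIs), 43.6-fold (28.8 to 69.0) that of cDC2-like cells and 52.1-fold (36.4 to 76.9) that of LysoDC-like cells. The next class in Control, proliferating cells, had 8.15 CPM, and the intervals of all lower neighbours overlap. Mature cells in Control had 3.17 CPM (5 UMIs), 0.03-fold (0.01 to 0.06) the level of resting cDC1-like cells, and mature cells of the treated libraries had 1 UMI in CpG and 4 in R848. With classes taken from clusters, the mature level was 0.596 CPM in Control and 0.566 CPM in CpG. Among the Control mature cells, 17 clustered with cDC1-like cells, and their part in the Tlr3 level was not tested. Among mature cells with an Xcr1 UMI and no Sirpa UMI, which mark cDC1, Tlr3 had 0 UMIs in 47 CpG cells and 0 in 167 R848 cells, against 3 in 29 Control cells. A count of 0 there allows up to 7.86 CPM in CpG and 2.18 CPM in R848.

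In lysozyme-high cells Tlr3 was low in Control and higher after both agonists. LysoDC-like cells had 5.31 CPM (62 UMIs) after CpG and 5.04 CPM (78 UMIs) after R848, against 2.22 CPM (33 UMIs) in Control, ratios of 2.39 (1.54 to 3.77) and 2.27 (1.49 to 3.52). Macrophage-like cells had 12.9 CPM (64 UMIs) after CpG and 8.46 CPM (63 UMIs) after R848, against 2.50 CPM (13 UMIs) in Control, ratios of 5.15 (2.81 to 10.2) and 3.38 (1.84 to 6.69). Tlr3 was thus called higher in all 4 comparisons with Control. With classes taken from clusters the R848 ratio in LysoDC-like cells was 1.79 (1.09 to 3.04), no longer a call. Set against CpG, R848 was below CpG in macrophage-like cells at 0.66 (0.46 to 0.94). The lysozyme-high classes held 82.4% of Tlr3 UMIs in CpG and 83.9% in R848, against 10.1% in Control, where cDC1-like cells were present. Macrophage-like cells exceeded LysoDC-like cells 2.43-fold (1.68 to 3.50) in CpG and 1.68-fold (1.18 to 2.37) in R848, while in Control the ratio was 1.13 (0.54 to 2.20). An annotated transcript on the opposite strand, Gm45542, overlaps Tlr3 and has no row of its own in the matrix.

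Tlr8, the neighbour of Tlr7 on the X chromosome and a sensor of RNA breakdown products in humans, was called in no class. LysoDC-like cells had 4.71 CPM (55 UMIs) after CpG and 3.56 CPM (55 UMIs) after R848, against 3.17 CPM (47 UMIs) in Control, ratios of 1.49 (0.99 to 2.25) and 1.12 (0.75 to 1.70). Tlr8 gave 12 UMIs in CpG, 19 in R848 and 11 in Control macrophage-like cells. Unlike Tlr7, it was not higher in macrophage-like than in LysoDC-like cells, with ratios of 0.51 (0.25 to 0.97) in CpG, 0.72 (0.40 to 1.23) in R848 and 0.67 (0.31 to 1.31) in Control. The lysozyme-high classes held 76.1%, 77.9% and 69.0% of its UMIs.

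Tlr9, the sensor of unmethylated CpG DNA and the receptor of the injected oligonucleotide, was sparse in every class. All barcodes together held 36 Tlr9 UMIs in CpG, 57 in R848 and 11 in Control. LysoDC-like cells had 10 UMIs (0.857 CPM) after CpG and 21 UMIs (1.36 CPM) after R848, against 4 UMIs (0.269 CPM) in Control. The R848 ratio was 5.04 with a wide interval (1.70 to 20.2) and was called, while CpG against Control fell below the minimum of 20 UMIs. Macrophage-like cells had 6 UMIs after CpG and 15 after R848, against 5 in Control, with a ratio of 2.09 (0.72 to 7.36) for R848. Mature cells gave 13 UMIs (0.769 CPM) after CpG and 11 (0.848 CPM) after R848, against 0 in Control, where the floor is 1.90 CPM. The cDC2-like class gave 2, 2 and 1, and Control cDC1-like cells 0. Tlr9 did not exceed 1 UMI in any cell of the classes measured.

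Tlr13, a mouse receptor for bacterial ribosomal RNA, was spread over the classes. Its level in LysoDC-like cells was 6.77 CPM after CpG and 6.66 CPM after R848, against 7.68 CPM in Control, ratios of 0.88 (0.65 to 1.19) and 0.87 (0.66 to 1.14). Macrophage-like cells had 13.1 CPM after CpG and 12.2 CPM after R848, against 14.8 CPM in Control, ratios of 0.88 (0.62 to 1.24) and 0.82 (0.60 to 1.13). Tlr13 was thus not called in either class, and these intervals leave out a 2-fold difference. It was higher in macrophage-like than in LysoDC-like cells in all 3 libraries, by 1.93-fold in CpG, 1.83-fold in R848 and 1.93-fold in Control. Control levels of the 7 classes of 50 or more cells had overlapping intervals from each neighbour to the next.

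Mature cells differed between the agonists in Tlr13. The level was 5.98 CPM (101 UMIs) after CpG and 17.0 CPM (221 UMIs) after R848, against 11.4 CPM (18 UMIs) in Control. R848 was 2.85-fold (2.24 to 3.64) above CpG, a called difference. Both agonists had ratios to Control short of a call, 0.52 (0.32 to 0.92) for CpG and 1.49 (0.92 to 2.57) for R848. The CpG ratio passed to a call with classes taken from clusters (0.41), stricter gates (0.36), other scaling (0.497) and without a few cells described with Tlr12 (0.48). By origin marker, Xcr1-positive mature cells had 23.6 CPM (9 UMIs) after CpG and 26.9 CPM (37 UMIs) after R848, while Sirpa-positive ones had 6.36 CPM (16 UMIs) and 18.4 CPM (30 UMIs) and cells with neither marker 5.44 CPM and 15.6 CPM. The difference between R848 and CpG was therefore present in cells with Sirpa or neither marker, while the 2 Xcr1-positive groups have overlapping intervals. Xcr1-positive cells were 47 of the CpG and 167 of the R848 mature cells.

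**Figure D2:**
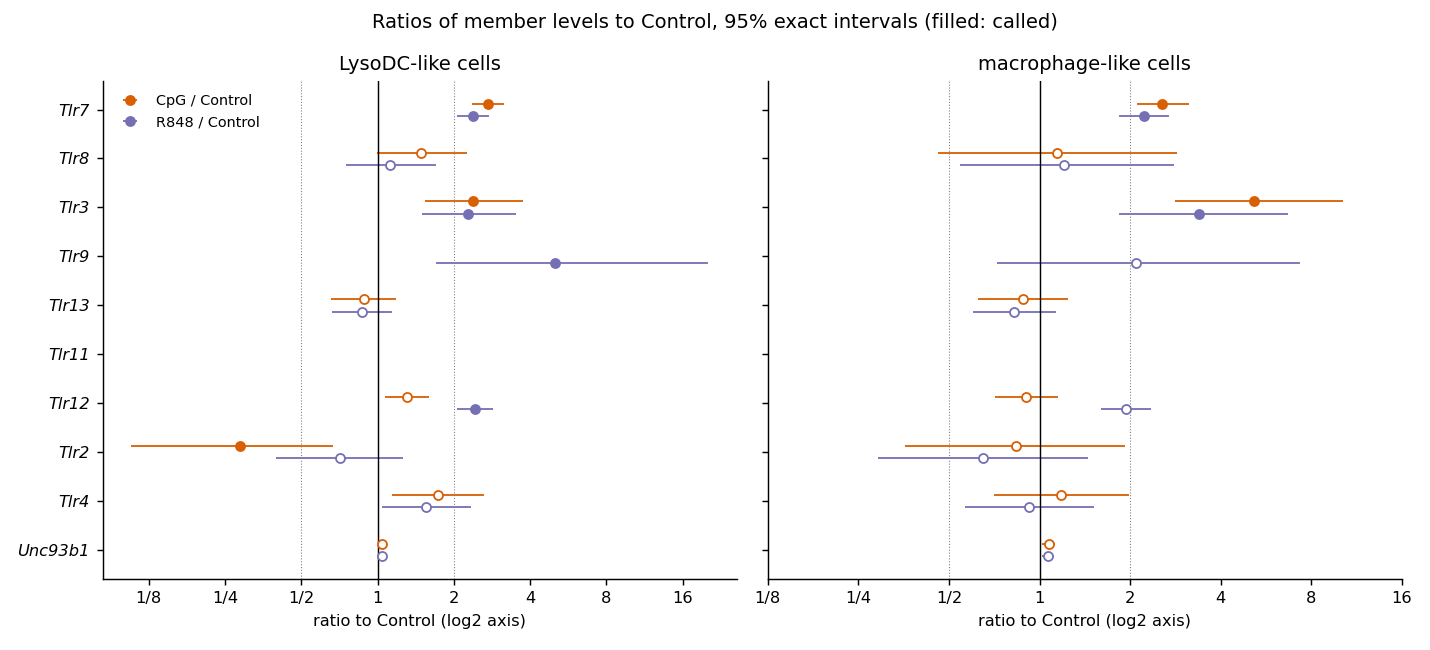
Ratios of the levels to Control on a log2 axis for LysoDC-like (left) and macrophage-like cells (right), CpG above R848 for each gene, with exact intervals and filled points for called differences. Genes with fewer than 20 UMIs in the 2 libraries have no point. Tlr7 and Tlr3 lay above 2 for both agonists in both classes, Tlr12 reached 2.42 for R848 in LysoDC-like cells, and Unc93b1 stayed at 1.04 to 1.07.

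Tlr11, a mouse sensor of profilin and flagellin, was found in resting cDC1-like cells and little elsewhere. In Control the level was 55.8 CPM (47.6 to 64.9, 168 UMIs) in these cells, 21.0-fold (13.6 to 33.7) that of cDC2-like cells. LysoDC-like and macrophage-like cells had 1 to 4 UMIs in each library, at or near the floor of 3, and the 0.269 CPM of Control LysoDC-like cells compares with 0.201 CPM that free RNA would give. Mature cells had 2.25 CPM (38 UMIs) after CpG and 5.94 CPM (77 UMIs) after R848, against 4.43 CPM (7 UMIs) in Control, and R848 was 2.64-fold (1.77 to 4.00) above CpG. The ratios to Control, 0.51 (0.22 to 1.35) for CpG and 1.34 (0.62 to 3.44) for R848, were not called. They rest on the 7 Control UMIs, and without cells high in Nccrp1, described with Tlr12, and cells clustered with cDC1-like cells they were 1.62 (0.42 to 13.9) and 4.28 (1.15 to 36.0), the second a call. With classes taken from clusters R848 was also called higher, at 2.89 (1.34 to 7.42). Xcr1-positive mature cells gave 0 UMIs of Tlr11 after CpG, which allows up to 7.86 CPM, and 11.6 CPM (16 UMIs) after R848, against 21.3 CPM (5 UMIs) in Control.

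Tlr12, the partner of Tlr11 in profilin sensing, was higher after R848 than after CpG in both lysozyme-high classes. LysoDC-like cells had 17.7 CPM (207 UMIs) after CpG and 32.8 CPM (507 UMIs) after R848, against 13.5 CPM (201 UMIs) in Control. The R848 ratio was 2.42 (2.05 to 2.87) and was called, while that of CpG was 1.31 (1.07 to 1.60). Macrophage-like cells had 25.8 CPM (128 UMIs) after CpG and 55.2 CPM (411 UMIs) after R848, against 28.5 CPM (148 UMIs) in Control, ratios of 0.90 (0.71 to 1.15) and 1.94 (1.60 to 2.35). The R848 ratio in macrophage-like cells lay just short of the 2-fold rule. Set against each other, R848 was 1.85-fold (1.57 to 2.18) above CpG in LysoDC-like cells and 2.14-fold (1.75 to 2.63) above it in macrophage-like cells. After thinning to 3000 UMIs a cell, 10.1% of R848 LysoDC-like cells had a Tlr12 UMI, against 4.74% after CpG and 4.79% in Control. Proliferating cells had 8.85 CPM of Tlr12 after CpG and 42.7 CPM after R848, against 6.90 CPM in Control, an R848 ratio to Control of 6.19 (3.21 to 13.1). This class held different cells in each library, with median lysozyme-class markers of 15.6 UMIs per 10000 in CpG and 400 in R848, against 693 in Control, and median mature markers of 94.8 and 11.6, against 6.82, and their part in the result was not tested. Tlr7 was also called there after R848, at 24.0 CPM against 11.9 CPM in Control (2.01-fold, 1.11 to 3.75), where 7.70% of all genes tested were called higher.

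The R848 difference in Tlr12 was also read by cluster. Lysozyme-high clusters ranged from 12.6 to 24.9 CPM of Tlr12 in CpG and from 23.9 to 62.2 CPM in R848, against 8.70 to 28.0 CPM in Control. The range of R848 overlaps both others, and its upper end was the macrophage-like cluster. By gates, macrophage-like cells stood above LysoDC-like cells in every library, 1.45-fold in CpG, 1.68-fold in R848 and 2.11-fold in Control. With classes taken from clusters in place of gates, the R848 ratio was 1.92 in LysoDC-like cells, no longer a call, and 2.23 in macrophage-like cells, where it became one.

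**Figure D3:**
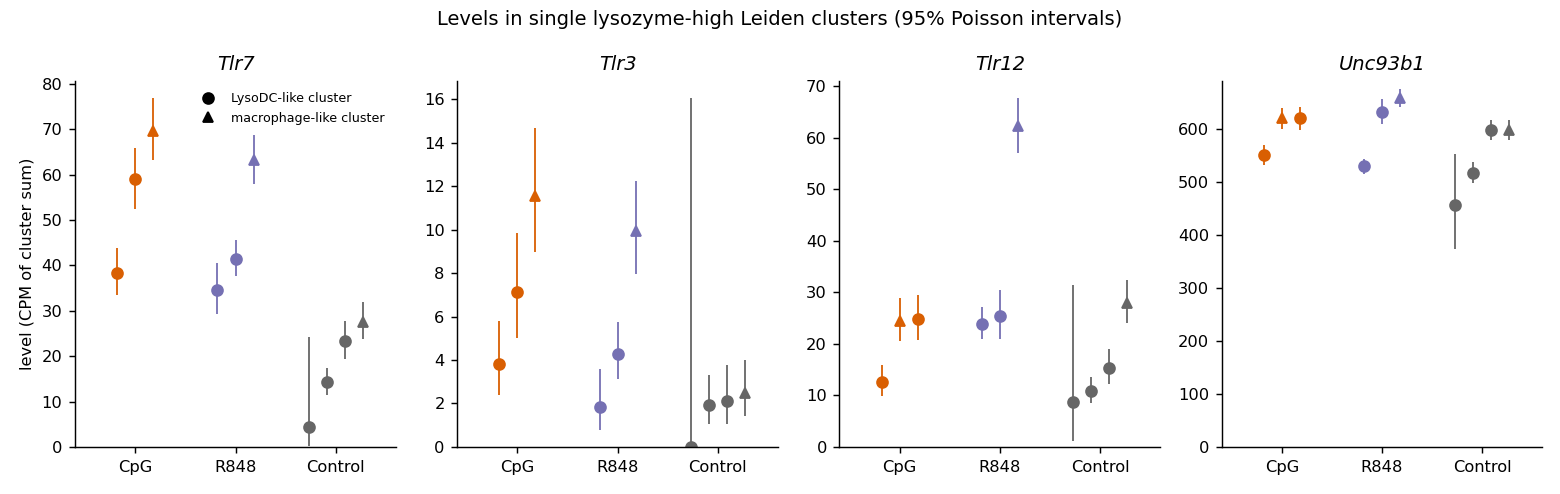
Levels in CPM of Tlr7, Tlr3, Tlr12 and Unc93b1 in each lysozyme-high cluster of CpG, R848 and Control, with exact Poisson intervals; within a library clusters stand in order of level, so positions do not match between panels. All CpG and R848 clusters lay above all Control clusters for Tlr7, while for Tlr12 the macrophage-like cluster of R848 stood apart at 62.2 CPM.

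In Control, Tlr12 had more than one site of expression. The level was 43.8 CPM (132 UMIs) in cDC1-like cells, 28.5 CPM in macrophage-like cells and 13.5 CPM in LysoDC-like cells, each above the next beyond their intervals, and the lower classes overlapped. The highest level was in a cluster of 31 Control cells that the markers placed with cDC2-like cells, at 232 CPM (74 UMIs). Its leading genes included Nccrp1, at 1877 CPM against 4.45 CPM in the other Control cells, and Gm15848, Prr29, Cpe and Pigr. The cluster is left unnamed and was picked out for its Tlr12 level after the values were seen. Cells with at least 5 of the 10 leading genes, called Nccrp1-high here, numbered 5 in CpG, of which 3 were called doublets, 5 in R848, of which 1 was, and 36 in Control, of which 4 were. They held 18 Tlr12 UMIs in CpG (225 CPM, 133 to 356) and 3 in R848 (56.3 CPM, 11.6 to 164), against 82 in Control (211 CPM, 168 to 262). In Control, 30 of the 36 cells had a Tlr12 UMI and together they held 12.2% of the Tlr12 UMIs of the library. They had 4 Siglech UMIs in Control, all in 1 cell, and 0 in CpG and R848. Their Unc93b1 level was 275 CPM in CpG and 300.1 CPM in R848, against 299 CPM in Control.

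The Tlr12 comparison in dendritic cells rested on few Control cells. In cDC2-like cells Tlr12 was 2.23 CPM (7 UMIs) after CpG and 2.52 CPM (6 UMIs) after R848, against 8.08 CPM (73 UMIs) in Control, called lower at 0.28 (0.11 to 0.60) and 0.31 (0.11 to 0.71). Of the 73 Control UMIs, 60 lay in 24 Nccrp1-high cells. In the cDC2-like cells left after removing Nccrp1-high cells and cells clustered with cDC1-like cells, the level was 0.640 CPM (2 UMIs) after CpG and 1.68 CPM (4 UMIs) after R848, against 1.48 CPM (13 UMIs) in Control. Too few UMIs are left there for a call at any ratio. Without the Nccrp1-high cells alone, the ratio was 0.43 (0.05 to 1.91) for CpG, still below 1, and 1.14 (0.27 to 3.68) for R848. In mature cells Tlr12 was 3.49 CPM (59 UMIs) after CpG and 5.55 CPM (72 UMIs) after R848, against 12.7 CPM (20 UMIs) in Control, called lower at 0.28 (0.16 to 0.48) and 0.44 (0.26 to 0.76). Of the 20 Control UMIs, 14 lay in 17 mature cells that clustered with cDC1-like cells and 3 in 1 Nccrp1-high cell. The other mature cells had 3.43 CPM after CpG and 5.56 CPM after R848, against 2.08 CPM (3 UMIs) in Control, which turned both directions round, short of a call.

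**Figure D4:**
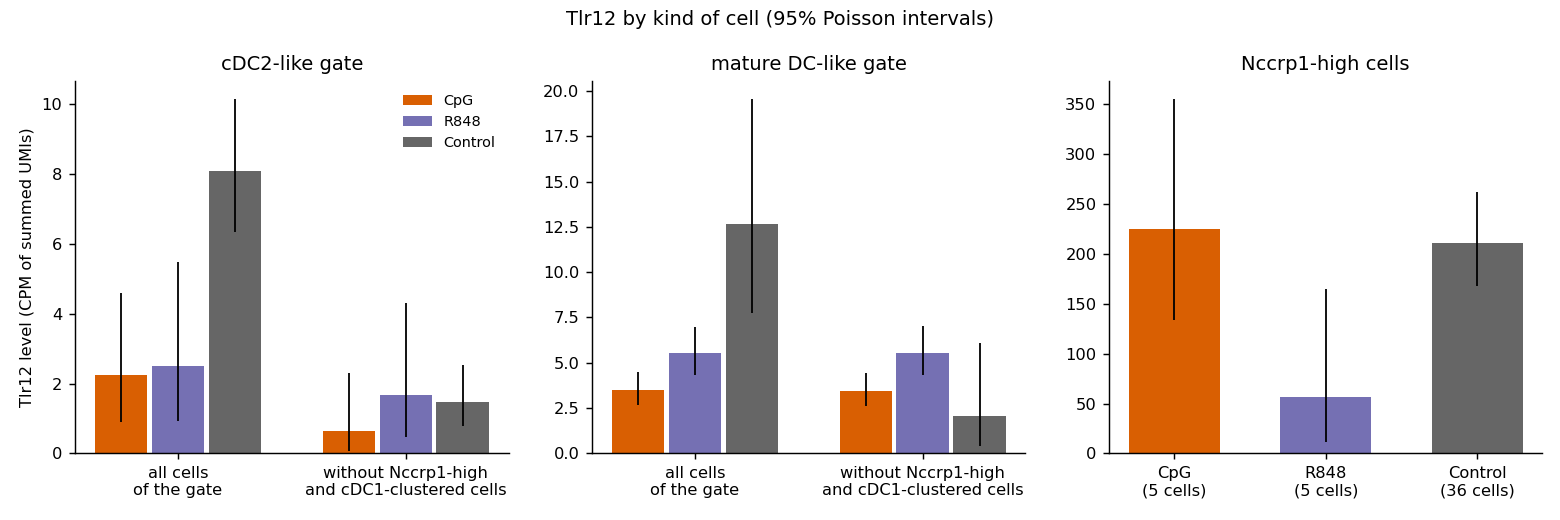
Tlr12 levels in CPM with exact Poisson intervals, CpG, R848 and Control from left to right, in cDC2-like and mature cells with all cells and without Nccrp1-high cells and cells clustered with cDC1-like cells, and in the Nccrp1-high cells themselves. The Control bars fall to 1.48 and 2.08 CPM once these cells are left out, and the Nccrp1-high cells stand at 225, 56.3 and 211 CPM.

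Tlr2, which pairs with Tlr1 or Tlr6 to sense lipoproteins, was low in all classes. LysoDC-like cells had 0.600 CPM (7 UMIs) after CpG and 1.49 CPM (23 UMIs) after R848, against 2.09 CPM (31 UMIs) in Control. CpG was called lower at 0.29 (0.11 to 0.67), R848 was not at 0.71 (0.40 to 1.26), and R848 was 2.48-fold (1.03 to 6.84) above CpG. In cDC2-like cells Tlr2 had 3.51 CPM (11 UMIs) after CpG and 1.68 CPM (4 UMIs) after R848, against 5.31 CPM (48 UMIs) in Control, with R848 called lower at 0.32 (0.08 to 0.86). Mature cells had 26 Tlr2 UMIs after CpG and 32 after R848, against 2 in Control. The ratios of 1.21 (0.30 to 10.6) and 1.95 (0.50 to 16.8) were not called. With classes taken from clusters, where Control had 5.96 CPM, they were 0.26 (0.14 to 0.48) and 0.41 (0.23 to 0.77), both called lower.

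Tlr4, the receptor of lipopolysaccharide, was a gene of lysozyme-high cells, which held 94.8% of its UMIs in CpG, 96.5% in R848 and 92.4% in Control. LysoDC-like cells had 4.89 CPM (57 UMIs) after CpG and 4.40 CPM (68 UMIs) after R848, against 2.83 CPM (42 UMIs) in Control. The ratios, 1.73 (1.14 to 2.64) and 1.55 (1.04 to 2.34), were above 1 and short of a call. Over the settings tried, the log2 ratio ranged from 0.70 to 0.79 for CpG and from 0.10 to 0.64 for R848. With classes taken from clusters the R848 level was 3.27 CPM. Macrophage-like cells had 7.05 CPM after CpG and 5.51 CPM after R848, against 5.97 CPM in Control. In Control they exceeded LysoDC-like cells 2.11-fold (1.28 to 3.44), whereas the ratio was 1.44 (0.92 to 2.24) in CpG and 1.25 (0.83 to 1.87) in R848. All cDC1-like, cDC2-like and mature cells had 0 to 2 Tlr4 UMIs in each library.

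Unc93b1, the chaperone of the endosomal receptors, had a UMI in 95.4% to 100% of lysozyme-high cells of each class and library and was called in no comparison. LysoDC-like cells had 579.5 CPM after CpG and 575.6 CPM after R848, against 555 CPM in Control, ratios of 1.04 (1.01 to 1.08) and 1.04 (1.01 to 1.07). Macrophage-like cells had 639 CPM after CpG and 634 CPM after R848, against 596 CPM in Control, ratios of 1.07 (1.02 to 1.13) and 1.06 (1.02 to 1.11). With scaling by the median gene the R848 ratios were 0.97 and 0.98, so the small R848 differences have no direction that holds across scalings. The CpG ratios stayed above 1 in the settings tried, at log2 values of 0.03 to 0.07 in LysoDC-like and 0.04 to 0.14 in macrophage-like cells. The level followed cell class far more than treatment. Among Control classes of 50 or more cells the order was macrophage-like 596, LysoDC-like 555 and cDC1-like 510 CPM, each beyond the intervals of the next. Proliferating, lymphocyte-like and cDC2-like cells followed at 381, 367 and 346 CPM with overlapping intervals, and mature cells were lowest at 186 CPM. Mature cells also stood lowest in the treated libraries, at 158 CPM in CpG and 171 CPM in R848, far above the 9.17 and 11.72 CPM of free RNA. cDC2-like cells had 436 CPM after CpG and 404 CPM after R848, against 346 CPM in Control, ratios of 1.26 (1.18 to 1.34) and 1.17 (1.09 to 1.26). These were 1.10 (1.03 to 1.17) and 1.01 (0.94 to 1.09) with the other scaling, which moved the cDC2-like median of all genes by 0.20 and 0.21 on the log2 scale. The median markers of monocytes in this class were 58.5 and 57.2 UMIs per 10000 after CpG and R848, against 31.2 in Control, and their part in the result was not tested.

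**Figure D5:**
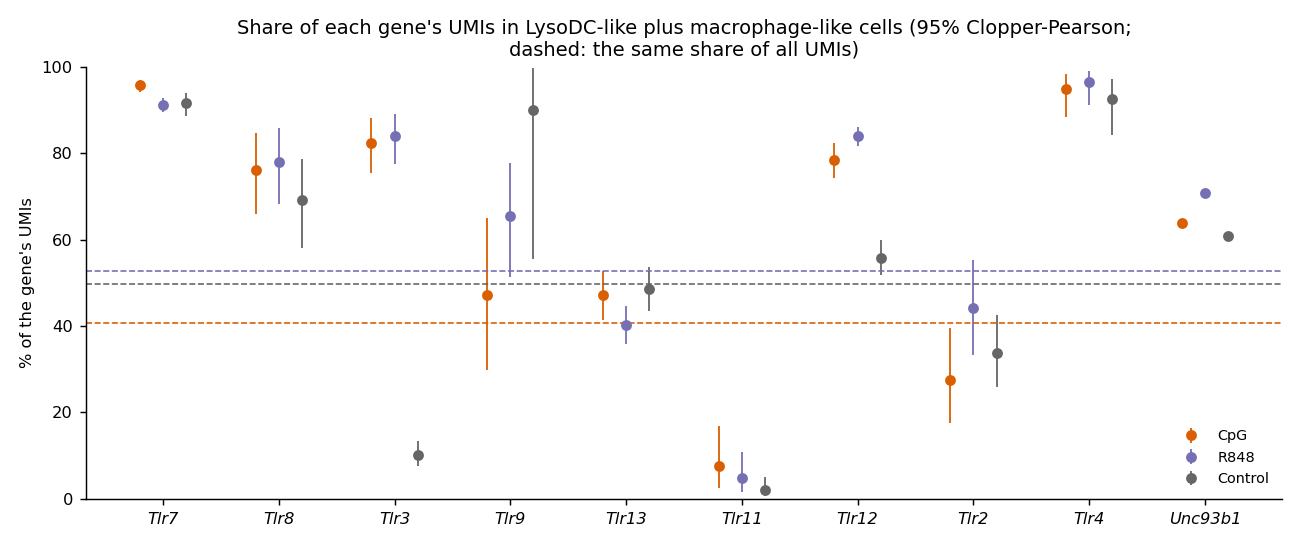
Percentage of each gene's UMIs found in LysoDC-like and macrophage-like cells together (vertical axis) for CpG, R848 and Control, with Clopper-Pearson intervals and dashed lines for the same share of all UMIs. Tlr7 and Tlr4 lay above 91% in each library, Tlr11 below 8%, and Tlr3 at 82.4% and 83.9% in CpG and R848, against 10.1% in Control.

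Cells with the plasmacytoid marker Siglech were mostly lysozyme-high. With called doublets kept, 42 CpG, 80 R848 and 108 Control cells had a Siglech UMI, of which 33, 66 and 76 were lysozyme-high. Of these cells, 11, 22 and 26 had 2 or more Siglech UMIs. Free RNA would give 0.0394, 0.0622 and 0.146 CPM of Siglech, while the lysozyme-high clusters reached 5.78 CPM in CpG and 5.43 CPM in R848, against 9.58 CPM in Control. In lysozyme-high cells with Siglech, Tlr7 was 75.5 CPM after CpG and 61.7 CPM after R848, against 22.0 CPM in Control, while in those without it Tlr7 was 53.1 and 46.3 CPM, against 20.4 CPM. Tlr12 was 22.2 CPM after CpG and 46.6 CPM after R848, against 15.9 CPM in Control, in those with Siglech. Without Siglech, Tlr12 was 20.003 CPM (357 UMIs) after CpG and 38.7 CPM after R848, against 17.2 CPM in Control, and for both genes the intervals of cells with and without Siglech overlapped in each library. Tlr9 had 0 UMIs in the 33 CpG cells, 1 in the 66 R848 cells and 0 in the 76 Control cells.

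Cells with Siglech and other plasmacytoid markers numbered 3 in CpG, 5 in R848 and 6 in Control, and too few were left for levels by library. The 14 cells pooled held 78213 UMIs, for which the floor is 38.4 CPM. They had 0 Tlr9 UMIs, which at this depth allows a level of up to 38.4 CPM. They had 3 Tlr7 UMIs, 2 in R848 and 1 in Control. They had 11 Tlr12 UMIs, all of them in the 5 R848 cells, which were all called doublets. Unc93b1 had 20 UMIs in the CpG, 29 in the R848 and 9 in the Control cells, or 1001 CPM, 898 CPM and 347 CPM, where the interval of Control is 159 to 659 CPM. The plasmacytoid-like cells of Control also held UMIs of the T or NK cell, neutrophil and monocyte marker lists, at medians of 22.3, 24.2 and 40.6 per 10000. Their leading genes included Cd8b1 of the first list, S100a8 and S100a9 of the second and Ly6c2 of the third. The class may thus hold other cells, which was not tested.

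Other genes of the pathway were read from 7 lists of 59 genes in all, of other receptors, chaperones, endosomal enzymes, co-receptors, adaptors, transcription factors and inhibitors. In LysoDC-like cells 4 of 57 measured were called higher and 0 lower after CpG, where 3.33% and 3.14% of all genes were, and 8 were higher and 1 lower after R848, where 5.96% and 3.59% were. After CpG, 4 of 55 genes measured in macrophage-like cells were higher and 2 were lower (4.19% and 3.13% of all genes), and after R848 7 of 56 were higher and 2 were lower (7.41% and 4.26%). Their median log2 ratio was 0.18 after CpG and 0.30 after R848 in LysoDC-like cells and 0.09 and 0.21 in macrophage-like cells, beside 0.00, 0.10, 0.04 and 0.12 over all genes. The largest was Irf7, the interferon-inducible factor that acts below Tlr7 and Tlr9, which had in LysoDC-like cells 786 CPM after CpG and 1021 CPM after R848, against 68.8 CPM in untreated ones. Pld4, an endosomal exonuclease that degrades Tlr9 ligands, had 213 CPM after R848 in LysoDC-like cells, against 55.9 CPM in Control (3.82-fold), and was also higher in macrophage-like cells (4.05-fold). Lgmn, an endosomal protease that processes Tlr7 and Tlr9, had 44.0 CPM in R848 macrophage-like cells, against 7.51 CPM in Control (5.86-fold), and was also higher after R848 in LysoDC-like cells (3.70-fold) and after CpG in macrophage-like cells (2.07-fold). The protease Ctsl had 254 CPM in R848 macrophage-like cells, against 516 CPM in Control (0.49-fold).

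The co-receptors moved in both directions. Cd36, a scavenger receptor that works with Tlr2, was higher in all 4 comparisons, 2.36-fold after CpG and 4.57-fold after R848 in LysoDC-like cells, and 3.23-fold and 10.5-fold in macrophage-like cells. In Control it had 63 UMIs in LysoDC-like and 11 in macrophage-like cells. Cd180, a Toll-like receptor homologue, was higher in LysoDC-like cells after CpG (2.49-fold) and R848 (2.97-fold) and in macrophage-like cells after R848 (2.39-fold), and stood short of a call there after CpG (1.75-fold). The adaptor Pik3ap1 was higher in all 4 comparisons, by 3.07-fold to 5.23-fold, over 39 Control UMIs in LysoDC-like and 16 in macrophage-like cells. Cd14, the lipopolysaccharide co-receptor, was lower in macrophage-like cells after CpG, at 2 UMIs against 30 in Control. Tlr5, the flagellin receptor, was lower in 3 of the 4 comparisons. Macrophage-like cells had 0.60 CPM after CpG and 0.67 CPM after R848, at or near the floor of 3 UMIs, against 4.24 CPM (22 UMIs) in Control. LysoDC-like cells had 1.68 CPM after R848, against 3.97 CPM (59 UMIs) in Control. Of the other receptors in the list with Tlr5, Tlr1 was called higher after R848 in both classes and Tlr6 was not called. Of the 7 chaperone and trafficking genes, which include Hsp90b1 and Cnpy3, 0 were called in any of the 4 comparisons, like Unc93b1 itself.

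Genes with the most similar pattern were ranked by Pearson's r of log2(CPM + 5) over 20 sums of class and library, among 7037 genes. These sums share libraries and class depth, so r is a description. For Tlr7 they were Ptk2b (0.954), Mpp1 (0.944) and Glmp (0.941), and for Tlr4 Myo7a (0.952), Ninj1 (0.950) and Abca1 (0.938). For Tlr11 they were Snx22 (0.957), Gcsam (0.939) and Xcr1 (0.934), all 3 of which are among the markers that define the cDC1-like class. For Unc93b1 they were Aga (0.929), Emc7 (0.924) and Ly6e (0.914), and for Tlr12 Clec1b (0.880), Mpeg1 (0.866) and Psap (0.832). The remaining members had their best match at 0.821 to 0.934, and Tlr9 was under the count minimum.

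In the GENCODE annotation of GRCm38, Tlr7 (chrX:167304929-167330558, minus strand) and Tlr8 (chrX:167242696-167264329, minus strand) neighbour each other, and Tlr13 lies elsewhere on X (chrX:106143204-106160493, plus strand). Tlr4 (chr4:66827584-66930284, plus strand) and Tlr12 (chr4:128615443-128618619, minus strand) share chromosome 4. Tlr2 lies at chr3:83836272-83841767 (minus strand), Tlr3 at chr8:45395665-45411080 (minus strand) and Tlr9 at chr9:106222598-106226883 (plus strand). Tlr11 lies at chr14:50357914-50363663 (plus strand) and Unc93b1 at chr19:3935186-3949340 (plus strand).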

How the data were processed

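The authors deposited 1 matrix of raw UMI counts per gene and cell for each library, made with Cell Ranger 2.0.0 on mm10, per the submitters' processing notes. Its annotation release was not given in the sources used here. The members and all gene lists were chosen with earlier results of these data known. Barcodes with at least 500 genes and at most 10% mitochondrial UMIs were kept, and doublets were called per library by simulated neighbours and removed. Cells were gated on marker UMIs per 10000: lysozyme-high at 350 or more, mature at 60 or more, cDC1-like at 20 and cDC2-like at 5, with members kept out of gates and of Leiden clustering. Cells within 20% of the cDC2 limit were 15.5% of CpG, 14.1% of R848 and 18.4% of Control cells, and at most 3.2% for each other limit. The libraries held 43767864, 46556726 and 43537067 UMIs for CpG, R848 and Control. Pathway genes named with their values were the 3 highest and 3 lowest called in each comparison. The calculations, in Python 3.11.15 with scipy 1.17.1, were tested on simulated data. Alternatives were cluster classes, stricter gates, other scaling, free RNA taken away, doublets kept, 50 UMIs and 1.5-fold. Of the genes leading the Nccrp1-high cluster, not all are reported here.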

Additional observations from a re-analysis of the deposited data

Results flagged for a closer look

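Tlr12 moved in opposite directions in different cell classes under the same treatment, a difference that was not tested. Its ratio of CpG to Control was 1.31 in LysoDC-like cells, against 0.276 in cDC2-like and 0.276 in mature cells. Its ratio of R848 to Control was 2.42 in LysoDC-like and 1.94 in macrophage-like cells, against 0.311 in cDC2-like and 0.438 in mature cells. The dendritic cell values rest on the few Control cells described above. Without them too few UMIs are left for a call in cDC2-like cells, where the CpG ratio stays below 1 at 0.433, and the mature directions turn.

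Unc93b1 also went both ways after CpG, which was not tested either, at 1.04 in LysoDC-like, 1.07 in macrophage-like and 1.26 in cDC2-like cells, against 0.849 in mature cells. Without Nccrp1-high cells and cells clustered with cDC1-like cells the mature ratio was 0.977 (0.854 to 1.12).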

How the results depend on the processing

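Doublets kept and free RNA taken away left all 58 log2 ratios of the members inside their main intervals, and stricter gates 54, other scaling 54 and cluster classes 50 of them. Called members changed in number by over 1.5 times with cluster classes to 2 (main 4) in LysoDC-like cells after R848, 2 (main 1) in cDC2-like cells after CpG, and 2 and 3 (main 1 each) in mature cells after CpG and R848. In mature cells the main call, Tlr12 lower, was not among them. Tlr2 and Tlr13 were called lower after CpG, and Tlr2 was lower and Tlr11 and Tlr12 were higher after R848. In mature cells after CpG, other scaling and a 1.5-fold rule each gave 2, and after R848 stricter gates gave 0. Without Nccrp1-high cells, a choice made after seeing the data, cDC2-like cells gave 0 after CpG and 1 after R848. These UMI totals were too low for Tlr12 to be called. Smaller changes included 3 (main 2) in macrophage-like cells after R848 with cluster classes, with doublets kept and with a 1.5-fold rule, and in LysoDC-like cells 4 after CpG (main 3) and 5 after R848 (main 4) with a 1.5-fold rule and 2 and 3 with 50 UMIs. Tlr12 reversed on the log2 scale. In mature cells after CpG it was 0.84 with cluster classes, 1.60 with stricter gates and 0.72 without Nccrp1-high and cDC1-clustered cells, a choice also made after seeing the data. After R848 these values were 1.47, 2.05 and 1.42, and in cDC2-like cells without Nccrp1-high cells it was 0.19. Some ratios whose main interval held 1 also changed sign. With cluster classes, Tlr2 in mature cells went from 0.28 to -1.97 after CpG and from 0.96 to -1.27 after R848. Tlr11 in mature cells after CpG went from -0.98 to 0.60 with stricter gates. Apart from the Control cells named above, the cause was not tested. No paired analysis was possible because each group is 1 library, and no library could be left out. Depth limits Tlr9 and Tlr11 in lysozyme-high cells, every level in treated cDC1-like cells and all values in plasmacytoid-like cells.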
